A study of Mus musculus with 12 samples.

Results

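The liver libraries of aged male C57BL/6J mice exposed to periodic heat were compared with those of unexposed mice of the same age. The comparison takes every gene counted in the 3 heat stress livers and the 3 control livers, 6 of the 12 libraries of the series. All mice were wild type and 24 months old. The heat stress mice were kept at 40 ± 0.5 °C and 60 ± 5% relative humidity for 3 h per day over 15 days, and the control mice were not exposed. Each library was made from polyadenylated RNA of a frozen piece of whole liver of 1 mouse. Of 25239 genes in the count table, 12296 had enough counts to be tested.

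Hepatocytes secrete most plasma proteins, and the endoplasmic reticulum (ER) folds them with the help of chaperones whose genes are switched on by the unfolded protein response. A separate set of cytosolic chaperones, the heat shock proteins, is switched on by heat shock factors when proteins unfold in the cytosol. Liver is also a strongly rhythmic organ, in which the circadian clock drives many metabolic genes, and it answers inflammatory cytokines and interferons with acute phase proteins, feedback inhibitors and antiviral genes.

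The libraries held between 10466198 and 15609040 counted read pairs. All 17 hepatocyte markers of the list used here were above 3 counts in every library. The libraries labelled control replicate 1 and heat stress replicate 2 stood apart, because they also carried skeletal muscle transcripts. The 39 skeletal muscle genes summed to 743 CPM (counts scaled to a common library size) in control replicate 1 and to 4000 CPM in heat stress replicate 2, against 22.6 to 30.1 CPM in the other 4 libraries. All 39 were above 3 counts in those 2 libraries, and 5 to 22 of them in the others. Brain genes summed to 78.7 CPM in control replicate 1 against 22.6 to 39.3 CPM elsewhere, adipose genes reached 74.2 CPM in heat stress replicate 2 against 28 to 44.3 CPM elsewhere, and the exocrine pancreas and gut list stood at 139, 437 and 270 CPM in the controls and 240, 152 and 202 CPM with heat stress. Its 8 tested genes all had a negative log2 fold change (median -0.76), 0 were called and 0 were without overlap. Most counts of this list were of Fabp2 (1431 to 3617 counts) and Cela1 (467 to 1242 counts). The sum of the list therefore says little about its other genes. 8 of its genes (Prss2, Cela2a, Cela3b, Ctrb1, Cpa1, Cpb1, Pnlip and Clps) were highest in control replicate 2 and had 0 to 4 counts in control replicate 3 and heat stress replicate 2. Among them Pnlip (pancreatic lipase) had 15, 64 and 0 counts in the controls and 21, 1 and 17 with heat stress. The summed ribosomal protein genes were lowest in the 2 libraries with muscle transcripts, at 16700 CPM in control replicate 1 and 19700 CPM in heat stress replicate 2, against 25100 to 36500 CPM in the others.

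**Figure D1:**
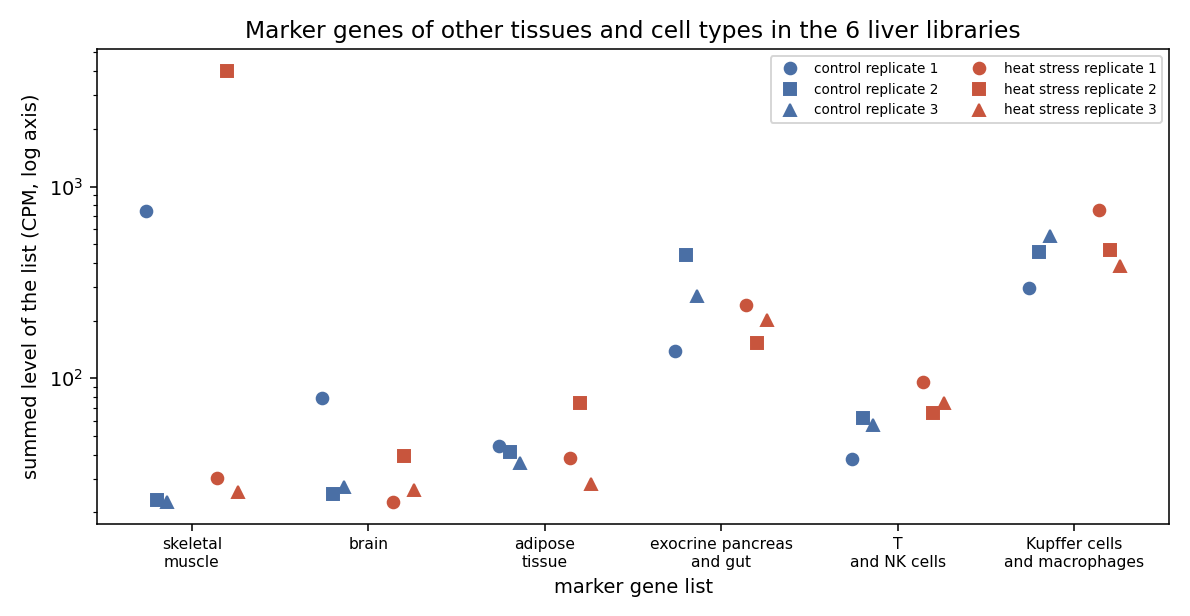
Summed level of 6 marker lists in each of the 6 liver libraries, in CPM on a log axis, with 1 point per library, controls in blue and heat stress in red. Skeletal muscle genes stood at 743 and 4000 CPM in 1 library of each group and at 22.6 to 30.1 CPM in the rest.

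The groups were therefore compared in 2 fits with edgeR's quasi-likelihood test. Without a covariate, 0 of 12296 genes (0%) passed an adjusted p of 0.05, 718 had an unadjusted p under 0.05, and the smallest adjusted p was 0.0599. DESeq2 called 66 genes on the same libraries, 31 higher and 35 lower. With the muscle level of each library as a covariate (the muscle score, the mean log2 CPM of the 9 muscle genes that could be tested), 28 genes were higher (0.228% of those tested) and 28 lower (0.228%). Below, a gene "rose" or "fell" only if it passed in this second fit, which was chosen with earlier results of these data known. Its log2 fold changes are given ± SE with 3 livers in each group, and CPM values are listed by library in the order of replicates 1 to 3. All 56 genes had the same direction without the covariate, and 48 of them had groups that did not overlap. Without regard to any test, the 3 heat stress livers lay above all 3 controls for 662 genes (5.38%) and below them for 705 (5.73%). The median log2 fold change over all tested genes was 0.011. The called genes depended on single libraries, since leaving out control replicate 2 left 11 calls, 10 of them among the 56. Both fits were repeated under 17 alternatives each, and counts of alternatives below are for the muscle score unless the fit without the covariate is named. Of the calls named below, the one made in the fewest alternatives was Cebpb (9 of 17), followed by Cbx7, Gstt2, Pdia4, Pim3 and Socs3 (10 each), Csrnp1, Cyp2a22 and Gstp2 (11 each) and Alas1, Cish, Trib3 and Tsc22d3 (12 each). The count columns of control replicate 2 and heat stress replicates 1 and 3 carry the suffix 2nd. With that suffix as a term the call was lost for Alas1, Asns, Cbx7, Cebpb, Csrnp1, Cyp4a12b, Foxq1, Gm10804, Gstp2 and Gstt2. It was also lost for Id1, Irf7, Mt2, Pim3, Saa1, Socs3 and Trib3, and among falls for Acnat1, Cyp2a22, Cyp2b9, Hyou1 and Pdia4.

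Of 45 tested members of the ER chaperone and ER-associated degradation list, 0 rose and 6 fell, namely Creld2, Sdf2l1, Manf, Hyou1, Hspa5 and Pdia4. The groups did not overlap for 19 members that were lower, 42.2% of the list against 5.73% of all tested genes, and for 1 that was higher. Members had a median log2 fold change of -0.31 without the covariate, and 40 of the 45 were negative. Without both libraries that carry muscle transcripts the median was -0.28, and 27 members were lower without overlap, against 20% of all genes. Without control replicate 2, which held the most exocrine pancreas transcripts (a comparison chosen after seeing the data), 22 members were lower without overlap (48.9% against 8.22% of all genes), the median was -0.35 and 2 of the 6 calls were left. 1 further listed gene had too few counts.

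Many promoters of this pathway share a sequence to which the unfolded protein response factors bind, the ER stress element, searched here as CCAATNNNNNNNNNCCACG on both strands of the 300 bases from 250 before to 50 after each RefSeq start site (GRCm38.p6). It was present in 9 of the 34 tested list members with a promoter in that table, and in 0.137% of the 27025 genes that have one (0.119% of 32851 promoters, and 0.183% of tested genes that have one). 7 of the 9 had groups without overlap, all lower with heat stress, as against 16 without overlap among the 34 and 5.73% lower without overlap over all tested genes. The 7 include Derl3, which passed the count filter only through the controls. The element stands in capitals for 8 of the 9 genes, in 5′ to 3′ direction of the gene, and reads CGTGG to ATTGG where it lies on the opposite strand. A match is a description of the sequence and not a measured binding site.
Creld2 (chr15:88819512-88819546, plus strand): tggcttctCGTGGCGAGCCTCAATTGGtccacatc
Hspa5 (chr2:34772017-34772051, plus strand): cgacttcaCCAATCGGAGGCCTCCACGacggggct
Derl3 (chr10:75893234-75893268, plus strand): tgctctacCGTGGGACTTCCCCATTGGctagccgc
Pdia6 (chr12:17266483-17266517, plus strand): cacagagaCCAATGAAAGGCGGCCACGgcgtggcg
Dnajc3 (chr14:118937819-118937853, plus strand): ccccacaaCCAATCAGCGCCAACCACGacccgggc
Canx (chr11:50325792-50325826, minus strand): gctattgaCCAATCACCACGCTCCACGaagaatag
Calr (chr8:84847067-84847101, minus strand): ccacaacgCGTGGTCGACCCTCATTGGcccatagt
Syvn1 (chr19:6046524-6046558, plus strand): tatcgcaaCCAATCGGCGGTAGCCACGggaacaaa
The ninth, Hsp90b1, holds 2 copies, of which the first begins 212 and the second 107 bases before its start site.

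Creld2, an ER-resident protein secreted on ER stress (chr15:88819646-88826683, GRCm38), stood at 57.97, 89.4 and 47.3 CPM in the control livers and 14.1, 10.9 and 16.9 CPM in the heat stress livers and fell (log2 fold change -2.16 ± 0.23, adjusted p = 0.0013). The 3 heat stress values lay far below the lowest control. Because that single element is in its promoter, the 250 bases before its start site are printed here (chr15:88819396-88819645, plus strand), with the element in capitals.
Creld2 promoter: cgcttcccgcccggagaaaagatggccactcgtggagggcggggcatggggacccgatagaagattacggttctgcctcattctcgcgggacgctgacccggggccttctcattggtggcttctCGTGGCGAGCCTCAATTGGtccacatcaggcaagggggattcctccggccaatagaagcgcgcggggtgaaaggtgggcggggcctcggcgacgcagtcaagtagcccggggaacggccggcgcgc
Sdf2l1, a component of the ER chaperone complex, stood at 46.5, 82.9 and 42.2 CPM in the control livers and 19.7, 15.6 and 18.8 CPM in the heat stress livers and fell (log2 fold change -1.60 ± 0.24, adjusted p = 0.0065). Control replicate 2, the library with the most exocrine pancreas transcripts, was the highest for both genes. It was also the highest control for Manf, Hspa5, Hsp90b1 and Derl3, given below. For Hyou1 and Pdia4 control replicate 1 was the highest. The part of the exocrine pancreas transcripts in these differences was not tested. Manf, an ER stress-inducible secreted factor, stood at 140.1, 234 and 137 CPM in the control livers and 76.7, 42.6 and 84.9 CPM in the heat stress livers and fell (log2 fold change -1.23 ± 0.22, adjusted p = 0.019). Hspa5 (BiP), the central Hsp70 chaperone of the ER lumen (chr2:34771970-34777547), stood at 1031, 1198 and 897 CPM in the control livers and 421, 426 and 518 CPM in the heat stress livers and fell (log2 fold change -1.18 ± 0.20, adjusted p = 0.012). Hyou1, an Hsp70-related nucleotide exchange factor for BiP, stood at 185, 116 and 109.6 CPM in the control livers and 47.6, 54.6 and 68.8 CPM in the heat stress livers and fell (log2 fold change -1.30 ± 0.21, adjusted p = 0.0092). Pdia4, a protein disulphide isomerase, stood at 231, 195 and 199 CPM in the control livers and 107, 121 and 123 CPM in the heat stress livers and fell (log2 fold change -0.87 ± 0.17, adjusted p = 0.036). In each of these 6 genes all heat stress livers were below all controls. Creld2 and Sdf2l1 passed in each of the 17 alternatives with the muscle score, and in 8 and 7 of the 17 without the covariate. With the score, Hspa5 lost the call without control replicate 2, Hyou1 there and with the library suffix as a term, Manf without control replicate 1 or control replicate 2, and Pdia4 in 7 of the 17.

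The other members with the element did not pass. Hsp90b1 (Grp94), the ER form of Hsp90, stood at 1121, 1652 and 1547 CPM in the control livers and 698, 753 and 759.7 CPM in the heat stress livers (log2 fold change -0.91 ± 0.21, adjusted p = 0.075), with no overlap of the groups. Derl3, a channel component of ER-associated degradation, was at 2.39, 8.399 and 2.05 CPM in the control livers and 0.521, 0.836 and 1.02 CPM in the heat stress livers (-2.29 ± 0.61, adjusted p = 0.22), again without overlap. With 1 library left out, its log2 fold change ran from -3.002 to -1.491. Calr, the calcium-binding lectin chaperone, was at 986, 591 and 669.7 CPM in the control livers and 436, 557 and 631 CPM in the heat stress livers, and heat stress replicate 3 lay above 1 control (-0.52 ± 0.21, adjusted p = 0.45). Herpud1, which acts in ER-associated degradation, was the 1 member whose heat stress livers all lay above the controls, at 264, 211 and 275 CPM in the control livers and 292, 332 and 461 CPM in the heat stress livers (0.55 ± 0.21, adjusted p = 0.42). Xbp1, a transcription factor of the unfolded protein response, was at 247, 266 and 227 CPM in the control livers and 258, 201 and 288 CPM in the heat stress livers (0.05 ± 0.18, adjusted p = 0.97), with overlapping groups.

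Of 28 tested members of the cytosolic heat shock list, 2 fell and 0 rose, 23 had a negative log2 fold change, and 11 were lower without overlap (39.3% against 5.73% of all genes), with 0 higher. The median log2 fold change was -0.27 without the covariate and -0.19 without both libraries that carry muscle transcripts, where 15 were lower and 3 higher without overlap (with 2 livers a group, 20% and 21.6% of all genes were). Hsp90aa1, the inducible cytosolic Hsp90 (chr12:110690605-110702728), stood at 162, 221 and 205 CPM in the control livers and 66.9, 81.9 and 50.2 CPM in the heat stress livers and fell (log2 fold change -1.60 ± 0.22, adjusted p = 0.0034). Hsph1 (Hsp110), the nucleotide exchange factor of cytosolic Hsp70, stood at 37.3, 48.2 and 43.1 CPM in the control livers and 16.98, 14.2 and 18.5 CPM in the heat stress livers and fell (log2 fold change -1.30 ± 0.17, adjusted p = 0.003). The highest heat stress liver was at 50.7% of the lowest control for Hsp90aa1 and at 49.5% for Hsph1, and both passed in each of the 17 alternatives with the muscle score. Without the covariate Hsp90aa1 passed in 6 of 17 and Hsph1 in 8.

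Among the members that were lower without overlap but did not pass were Stip1, Fkbp4 and Hspa4l. Stip1, which links Hsp70 to Hsp90, stood at 71.6, 63.2 and 58.3 CPM in the control livers and 41.99, 45.2 and 40.4 CPM in the heat stress livers (-0.64 ± 0.15, adjusted p = 0.10). Fkbp4, an immunophilin of steroid receptor complexes, stood at 215, 154 and 140.2 CPM in the control livers and 93.8, 129.6 and 108 CPM in the heat stress livers (-0.72 ± 0.17, adjusted p = 0.081). Hspa4l, another Hsp110 family member, was at 13.2, 23.4 and 20.3 CPM in the control livers and 12.1, 11.5 and 7.81 CPM in the heat stress livers (-0.79 ± 0.25, adjusted p = 0.28). Of the Hsp70 genes themselves, Hspa8, the constitutive cytosolic form, was at 793, 728 and 882 CPM in the control livers and 758, 475 and 746 CPM in the heat stress livers (-0.22 ± 0.19, adjusted p = 0.80) and Hspa1b, the heat-inducible form, at 3.23, 1.22 and 1.77 CPM in the control livers and 1.56, 1.11 and 2.603 CPM in the heat stress livers (-0.28 ± 0.42, adjusted p = 0.90). The groups overlapped for both, and Hspa1a had too few counts. Hsf1, the main heat shock factor, was at 13.9, 10.8 and 11.9 CPM in the control livers and 8.19, 12.6 and 11.6 CPM in the heat stress livers, also overlapping.

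The heat shock element, searched as GAANNTTCNNGAA on both strands of the same promoters, was present in 3 of 22 list members with a promoter and in 0.662% of all genes (0.591% of tested genes) that have one. The 3 are Hsph1, Chordc1 and Dnajb6. The stretches around it are given for the first 2, both of which had lower groups without overlap, with the element or its opposite-strand form in capitals. In Hsph1 it lies after the start site, and in Chordc1 it begins 4 bases before it and spans it.
Hsph1 (chr5:149636287-149636308, minus strand): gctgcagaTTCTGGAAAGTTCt
Chordc1 (chr9:18292255-18292293, plus strand): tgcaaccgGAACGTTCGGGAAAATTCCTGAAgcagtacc
Chordc1, an Hsp90-binding co-chaperone whose element is extended by overlapping repeats, stood at 30.7, 31.9 and 31.5 CPM in the control livers and 24.1, 19.9 and 22.7 CPM in the heat stress livers (-0.46 ± 0.16, adjusted p = 0.36). The 12 genes of mitochondrial chaperones and proteases had a median log2 fold change of 0, with 0 called and 0 without overlap, and Hspd1 (Hsp60) was at 422, 454 and 487 CPM in the control livers and 442, 408 and 426 CPM in the heat stress livers. The 8 subunits of the TRiC chaperonin had a median of -0.08, with 0 called and 2 lower without overlap (25.0% against 5.73%), and a median of 0.01 with the muscle score. Whether the lists differ from each other was not tested.

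Both metallothionein genes rose. Mt1 and Mt2, small cysteine-rich proteins that bind zinc and copper, lie side by side on chromosome 8 (chr8:94179082-94180327 and chr8:94172664-94173568). Mt1 stood at 7.36, 4.81 and 4.94 CPM in the control livers and 27.5, 21.9 and 38.7 CPM in the heat stress livers and rose (log2 fold change 2.36 ± 0.25, adjusted p = 0.0012). Mt2 stood at 2.07, 2.37 and 2.05 CPM in the control livers and 8.86, 4.88 and 12.4 CPM in the heat stress livers and rose (log2 fold change 2.09 ± 0.28, adjusted p = 0.0031). The lowest heat stress liver was 2.97-fold above the highest control for Mt1 and 2.06-fold for Mt2. Mt1 passed in each of the 17 alternatives with the muscle score and Mt2 in 15, against 9 and 3 of 17 without the covariate. Slc30a10, a manganese exporter of the zinc transporter family, stood at 49.3, 52.4 and 41.2 CPM in the control livers and 22.7, 24.5 and 26.8 CPM in the heat stress livers and fell (log2 fold change -0.96 ± 0.17, adjusted p = 0.019). Among the 18 tested members of the metallothionein and zinc transport list these were the 3 calls, and the list median was -0.04.

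**Figure D2:**
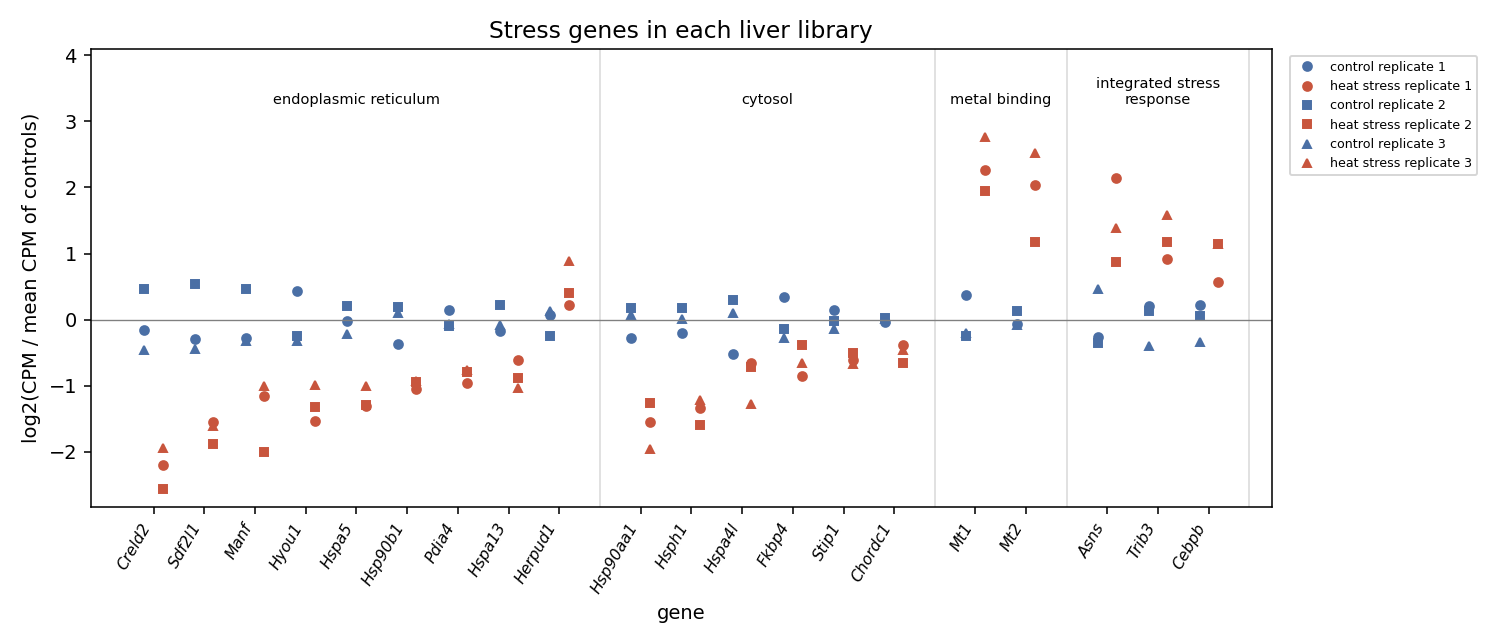
Level of 20 stress genes in each liver library, as log2 of the CPM over the mean CPM of the 3 controls, with controls in blue, heat stress in red and 1 point per library. The chaperone genes other than Herpud1 lie below 0 in all 3 heat stress livers, and Mt1 and Mt2 lie above 1.

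In the integrated stress response list, which holds targets of the factor ATF4, 3 of 27 tested members rose and 0 fell. Asns, asparagine synthetase, stood at 1.74, 1.63 and 2.89 CPM in the control livers and 9.23, 3.83 and 5.44 CPM in the heat stress livers and rose (log2 fold change 1.71 ± 0.30, adjusted p = 0.019). Trib3, a pseudokinase induced by ATF4, stood at 7.62, 7.26 and 5.03 CPM in the control livers and 12.6, 14.9 and 19.9 CPM in the heat stress livers and rose (log2 fold change 1.22 ± 0.23, adjusted p = 0.031). Cebpb, a transcription factor of liver and myeloid cells, stood at 71.6, 63.6 and 48.6 CPM in the control livers and 90.5, 136 and 135 CPM in the heat stress livers and rose (log2 fold change 0.90 ± 0.19, adjusted p = 0.049). Asns was called in 13 of the 17 alternatives and Trib3 in 12. Cebpb was called in 9, and lost the call with RLE scaling, library totals, the suffix term, the summed muscle level and 4 of the 6 fits that left out 1 library. Groups were without overlap for 6 higher members (22.2% against 5.38% of all genes) and 2 lower ones (7.4% against 5.73%), and the median was -0.08 without the covariate and 0.04 with the muscle score. Atf4 itself was at 135, 169 and 123 CPM in the control livers and 117, 88.99 and 125 CPM in the heat stress livers and Ddit3 (CHOP) at 7.75, 7.34 and 5.96 CPM in the control livers and 6.33, 4.39 and 7.81 CPM in the heat stress livers, both with overlapping groups. Slc1a4, a neutral amino acid transporter, was at 5.62, 6.04 and 3.54 CPM in the control livers and 2.16, 2.86 and 1.66 CPM in the heat stress livers (-1.31 ± 0.29, adjusted p = 0.073), lower without overlap.

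Of 27 NRF2 targets 1 rose (Gstp2), 4 were higher without overlap (14.8% against 5.38% of all genes) and 23 had a positive log2 fold change, with a median of 0.2. The 4 were glutathione S-transferases, enzymes that conjugate electrophiles. Of the 22 tested members of that family, 2 rose. Gstt2 stood at 74.04, 99.8 and 107 CPM in the control livers and 152, 161 and 211 CPM in the heat stress livers (log2 fold change 0.99 ± 0.19, adjusted p = 0.031) and Gstp2 at 6.26, 6.52 and 6.71 CPM in the control livers and 13.8, 8.71 and 27.2 CPM in the heat stress livers (log2 fold change 1.42 ± 0.28, adjusted p = 0.045). Gstp1, nearly identical in sequence to Gstp2 so that reads may be split between them uncertainly, was at 673, 593 and 722 CPM in the control livers and 1032, 958 and 1424 CPM in the heat stress livers (0.82 ± 0.20, adjusted p = 0.11). Hmox1, haem oxygenase, was at 10.7, 14.6 and 13.4 CPM in the control livers and 23.7, 17.6 and 13.3 CPM in the heat stress livers, with overlapping groups.

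Genes of the glucocorticoid target list went both ways, with 1 of 23 rising and 2 falling. Of the 23, 16 had a positive log2 fold change, 6 were higher without overlap (26.1% against 5.38% of all genes) and 2 lower (8.7% against 5.73%). Tsc22d1 stood at 144, 137 and 90.95 CPM in the control livers and 49.7, 59.7 and 47.5 CPM in the heat stress livers and fell (log2 fold change -1.33 ± 0.18, adjusted p = 0.0031). Tsc22d3 (GILZ), a textbook glucocorticoid-induced gene, stood at 86.8, 88.3 and 57.5 CPM in the control livers and 42.2, 48.5 and 41.1 CPM in the heat stress livers and fell (log2 fold change -0.88 ± 0.18, adjusted p = 0.041). Fkbp5, another classical target, was at 11.9, 12.6 and 12.2 CPM in the control livers and 17.3, 16.9 and 19.9 CPM in the heat stress livers (0.58 ± 0.18, adjusted p = 0.25), higher without overlap. The member that rose was Mt2, given above. Both cold-inducible RNA-binding protein genes were higher without overlap, Cirbp at 21.4, 20.2 and 15.3 CPM in the control livers and 27.9, 33.2 and 30.6 CPM in the heat stress livers (adjusted p = 0.18) and Rbm3 at 41.6, 48.6 and 45.1 CPM in the control livers and 73.5, 61.05 and 56.4 CPM in the heat stress livers (adjusted p = 0.28).

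The clock lists of opposite phases had medians of opposite sign, with 1 call. All 13 tested genes of the phase of Per and Dbp had a positive log2 fold change, with a median of 0.54. 1 rose, 6 were higher without overlap (46.2% of the list against 5.38% of all genes), and without both libraries that carry muscle transcripts 10 were (against 21.6%). Bhlhe41 (Dec2), a repressor in the clock loop (chr6:145858243-145865558), stood at 3.23, 2.53 and 5.22 CPM in the control livers and 13.3, 17.00 and 15.5 CPM in the heat stress livers and rose (log2 fold change 2.07 ± 0.26, adjusted p = 0.003), and it passed in each of the 17 alternatives with the muscle score and in 7 of the 17 without the covariate. Per1, a core repressor, was at 20.5, 10.6 and 15.00 CPM in the control livers and 23.9, 36.8 and 48.2 CPM in the heat stress livers (1.19 ± 0.27, adjusted p = 0.11). Dbp, a clock output transcription factor, was at 98.4, 45.1 and 72.2 CPM in the control livers and 115, 158 and 175 CPM in the heat stress livers (0.99 ± 0.24, adjusted p = 0.11). Usp2, a clock-controlled deubiquitinase, was at 25.3, 7.58 and 14.1 CPM in the control livers and 34.8, 35.7 and 58.3 CPM in the heat stress livers (1.43 ± 0.48, adjusted p = 0.45), and Ciart, a clock repressor, at 8.46, 2.61 and 3.73 CPM in the control livers and 13.9, 8.85 and 16.8 CPM in the heat stress livers (1.39 ± 0.44, adjusted p = 0.37). None of these 4 passed, although each heat stress liver exceeded each control.

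In the opposite phase, Arntl (Bmal1), the activator of the loop, was at 3.68, 5.63 and 2.33 CPM in the control livers and 1.34, 2.16 and 0.946 CPM in the heat stress livers (-1.54 ± 0.39, adjusted p = 0.13), and its partner Clock was at 33.1, 45.1 and 47.2 CPM in the control livers and 29.9, 26.5 and 20.2 CPM in the heat stress livers (-0.65 ± 0.20, adjusted p = 0.26). Both were lower without overlap and neither passed. Of the 6 tested genes of this phase 2 were lower (33.3% against 5.73% of all genes) and 1 higher (16.7% against 5.38%) without overlap, 0 were called, and the median was -0.39. The hour of tissue collection was not given in the sources used here.

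The E-box CACGTG, which BMAL1 and CLOCK bind, was present in the promoters of 4 of the 11 genes of the Per and Dbp phase with a promoter in the table and of 8.09% of all genes and 11.9% of tested genes that have one. These 4, Bhlhe41, Per1, Tef and Ciart, all had higher groups without overlap, as against 6 of the 11 and 5.38% of all tested genes. The D-box TTATGTAA, searched in the same list, was in 1 of the 11 (Per3) and in 0 of those 6. It was in 1.11% of all genes and 0.723% of tested genes with a promoter. Bhlhe41 and Per1 are shown with the E-box in capitals.
Bhlhe41 (chr6:145865560-145865581, minus strand): acgttccgCACGTGagctgggt
Per1 (chr11:69098775-69098796, plus strand): cccaagtcCACGTGcagggatg
Tef, a clock output factor related to Dbp, was at 144, 105 and 149.7 CPM in the control livers and 167, 178 and 197 CPM in the heat stress livers (0.44 ± 0.19, adjusted p = 0.48).

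In the metabolic lists the called genes were single enzymes and regulators. Ppp1r3b, the hepatic glycogen-targeting subunit of protein phosphatase 1 (chr8:35375739-35388139), stood at 354, 321 and 181 CPM in the control livers and 109, 88.6 and 66.2 CPM in the heat stress livers and fell (log2 fold change -1.74 ± 0.25, adjusted p = 0.0057). Gys2, the liver glycogen synthase on which that phosphatase acts, was at 143, 80.8 and 131 CPM in the control livers and 152, 219 and 255 CPM in the heat stress livers (0.77 ± 0.24, adjusted p = 0.25), higher without overlap. The nucleotide sugar enzymes Pgm3 and Gfpt1 of the hexosamine pathway were lower without overlap, Pgm3 at 20.4, 19.5 and 18.1 CPM in the control livers and 11.1, 13.2 and 9.62 CPM in the heat stress livers (adjusted p = 0.062) and Gfpt1 at 24.1, 30.3 and 22.2 CPM in the control livers and 15.1, 16.2 and 10.96 CPM in the heat stress livers (adjusted p = 0.079). Of the 25 genes of gluconeogenesis and glycogen 1 fell, and the gluconeogenic enzymes overlapped between groups, with Pck1 at 1752, 1359 and 2005 CPM in the control livers and 1596, 2762 and 2569.5 CPM in the heat stress livers and G6pc at 451, 589 and 885 CPM in the control livers and 503, 802 and 606 CPM in the heat stress livers. Igfbp1, an insulin-repressed binding protein counted in that list, was at 8.33, 52.8 and 59.4 CPM in the control livers and 64.7, 84.3 and 98.3 CPM in the heat stress livers, where control replicate 1 was far below the other controls (1.503 ± 0.90, adjusted p = 0.74).

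Of the peroxisomal acyl-CoA enzymes 1 fell. Acnat1, which conjugates fatty acids to amino acids, stood at 136, 135 and 119 CPM in the control livers and 65.97, 58.8 and 70.6 CPM in the heat stress livers and fell (log2 fold change -0.99 ± 0.16, adjusted p = 0.012). Its neighbour and paralogue Acnat2 was at 36.99, 51.8 and 21.3 CPM in the control livers and 15.4, 14.1 and 14.3 CPM in the heat stress livers (-1.35 ± 0.27, adjusted p = 0.064), and Hao2, a hydroxy acid oxidase, was at 3.81, 4.89 and 1.58 CPM in the control livers and 0.67, 1.04 and 1.104 CPM in the heat stress livers (-1.96 ± 0.42, adjusted p = 0.063). 6 of the 18 list members were lower without overlap (33.3% against 5.73% of all genes), 0 higher, and the list median was -0.1 (with the muscle score -0.15). Mitochondrial fatty acid oxidation and PPAR-alpha targets had 0 calls in 41 genes and a median of 0.14 (0.05 with the score). Of the cholesterol synthesis genes 0 of 25 passed, 5 were lower without overlap (20.0% against 5.73%) and the median was -0.2 (-0.13 without both libraries that carry muscle transcripts). Mvd, mevalonate diphosphate decarboxylase, was the lowest of these at 56.2, 41.2 and 27.2 CPM in the control livers and 24.8, 22.9 and 13.4 CPM in the heat stress livers (-1.11 ± 0.24, adjusted p = 0.064).

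Dio1, the deiodinase that activates thyroid hormone in liver, stood at 170.5, 215 and 153 CPM in the control livers and 91.1, 80.5 and 76.2 CPM in the heat stress livers and fell (log2 fold change -1.11 ± 0.18, adjusted p = 0.012). Tfrc, the transferrin receptor for iron uptake (chr16:32608920-32632794), stood at 51.7, 70.2 and 63.7 CPM in the control livers and 27.3, 16.2 and 23.6 CPM in the heat stress livers and fell (log2 fold change -1.37 ± 0.17, adjusted p = 0.0028). It passed in each of the 17 alternatives with the muscle score and in 7 of the 17 without the covariate. In the same list of iron handling, Id1, a target of bone morphogenetic protein signalling, stood at 6.78, 4.16 and 7.27 CPM in the control livers and 13.6, 12.5 and 18.1 CPM in the heat stress livers and rose (log2 fold change 1.30 ± 0.24, adjusted p = 0.028). Alas1, the rate-limiting enzyme of haem synthesis, stood at 435, 217 and 281 CPM in the control livers and 592, 677 and 844 CPM in the heat stress livers and rose (log2 fold change 1.14 ± 0.23, adjusted p = 0.046). Hamp, which encodes hepcidin, was at 961, 721 and 761 CPM in the control livers and 1058, 1292 and 1103 CPM in the heat stress livers (adjusted p = 0.48), higher without overlap. The list had 23 tested genes, of which 4 were higher (17.4% against 5.38% of all genes) and 1 lower (4.3% against 5.73%) without overlap.

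Of 55 tested cytochrome P450 genes of families 1 to 4, 1 rose and 2 fell. Cyp4a12b, a male-biased fatty acid hydroxylase, stood at 23.5, 11.9 and 15.7 CPM in the control livers and 45.9, 39.4 and 45.1 CPM in the heat stress livers and rose (log2 fold change 1.32 ± 0.21, adjusted p = 0.011). Its near-identical copy Cyp4a12a was at 322, 116 and 152 CPM in the control livers and 164, 147 and 159.6 CPM in the heat stress livers, overlapping, so the split of reads between the pair is uncertain. Cyp2a22 stood at 15.1, 11.4 and 10.9 CPM in the control livers and 4.09, 6.202 and 6.86 CPM in the heat stress livers and fell (log2 fold change -1.20 ± 0.23, adjusted p = 0.031). Cyp2b9, female-biased in mouse liver, stood at 79.5, 24.1 and 19.5 CPM in the control livers and 7.296, 27.7 and 14.8 CPM in the heat stress livers and fell in the fit with the covariate (log2 fold change -1.59 ± 0.25, adjusted p = 0.011), although its groups overlapped and the fit without it gave -1.31 ± 0.68 (unadjusted p = 0.10). Within each group its highest value came from the library with muscle transcripts. The major urinary proteins, a multigene family with near-identical copies, had 4 of 17 tested members lower without overlap (23.5% against 5.73% of all genes) and 0 called. Single members varied widely within a group, as did Mup10 at 20.9, 4.32 and 173 CPM in the control livers and 2.83, 1.95 and 2.44 CPM in the heat stress livers.

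**Figure D3:**
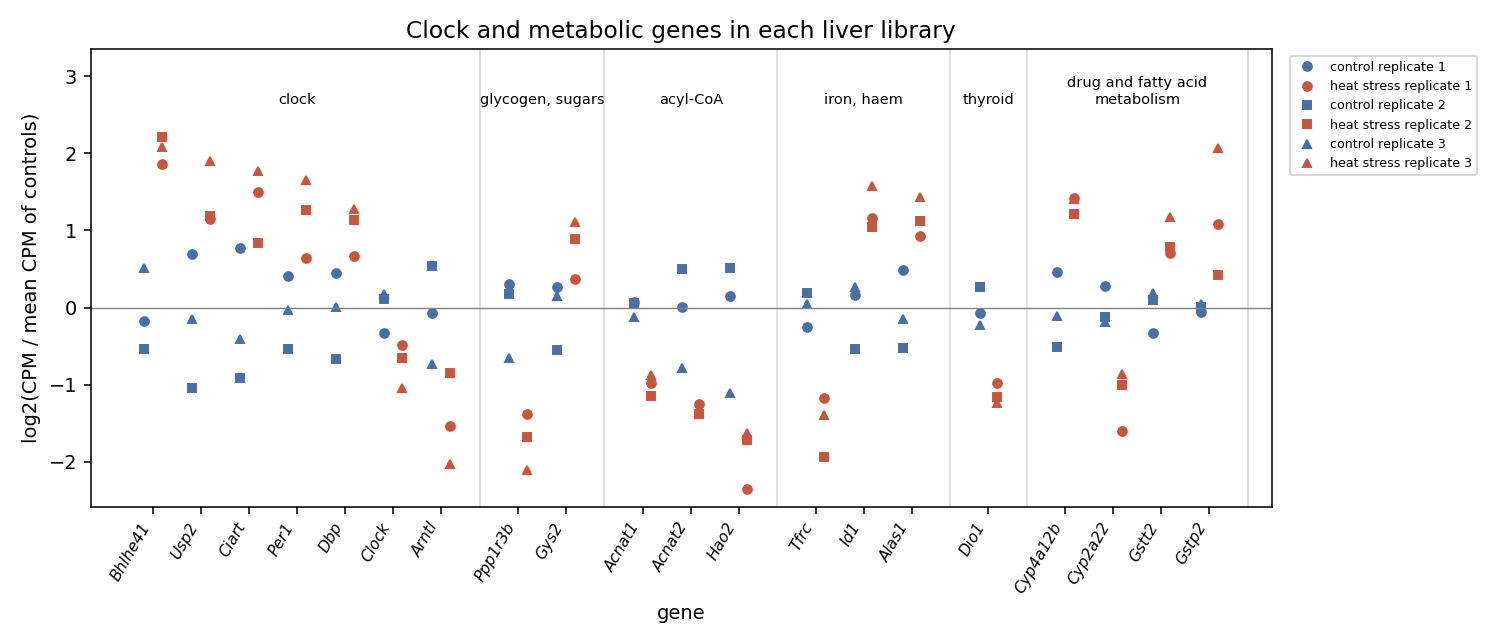
Level of 20 clock and metabolic genes in each liver library, as log2 of the CPM over the mean CPM of the 3 controls, with controls in blue and heat stress in red. Ppp1r3b, Acnat1, Dio1 and Tfrc lie below all controls in each heat stress liver, and Bhlhe41 and Cyp4a12b above them.

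The central energy pathways showed no called gene. Medians without the covariate were 0.04 for 74 oxidative phosphorylation subunits, 0.08 for 22 citric acid cycle genes, 0.2 for 17 glycolytic genes, -0.1 for 14 urea cycle genes and -0.03 for 37 genes of amino acid catabolism. The log2 fold changes of the oxidative phosphorylation subunits ran only from -0.19 to 0.36. With the muscle score the medians were 0.12 for oxidative phosphorylation and 0.12 for glycolysis. Without both libraries that carry muscle transcripts the glycolysis median was 0.38, with 12 of 17 genes higher without overlap, and that of amino acid catabolism was 0.14, with 14 of 37 higher (against 21.6% of all genes). With all 6 libraries, 2 of the 74 oxidative phosphorylation subunits were higher (2.7% against 5.38% of all genes) and 0 lower without overlap. Bile acid synthesis and transport had 0 calls in 22 genes, with 2 higher and 2 lower without overlap (9.1% each, against 5.38% and 5.73% of all genes). Apolipoprotein genes had 0 calls in 23, with 3 higher without overlap (13% against 5.38% of all genes). Among them was Apom, a carrier in high-density lipoprotein, at 138, 79.4 and 90.1 CPM in the control livers and 140.1, 144 and 207 CPM in the heat stress livers (adjusted p = 0.33). A value that did not pass does not show that levels were equal.

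**Figure D4:**
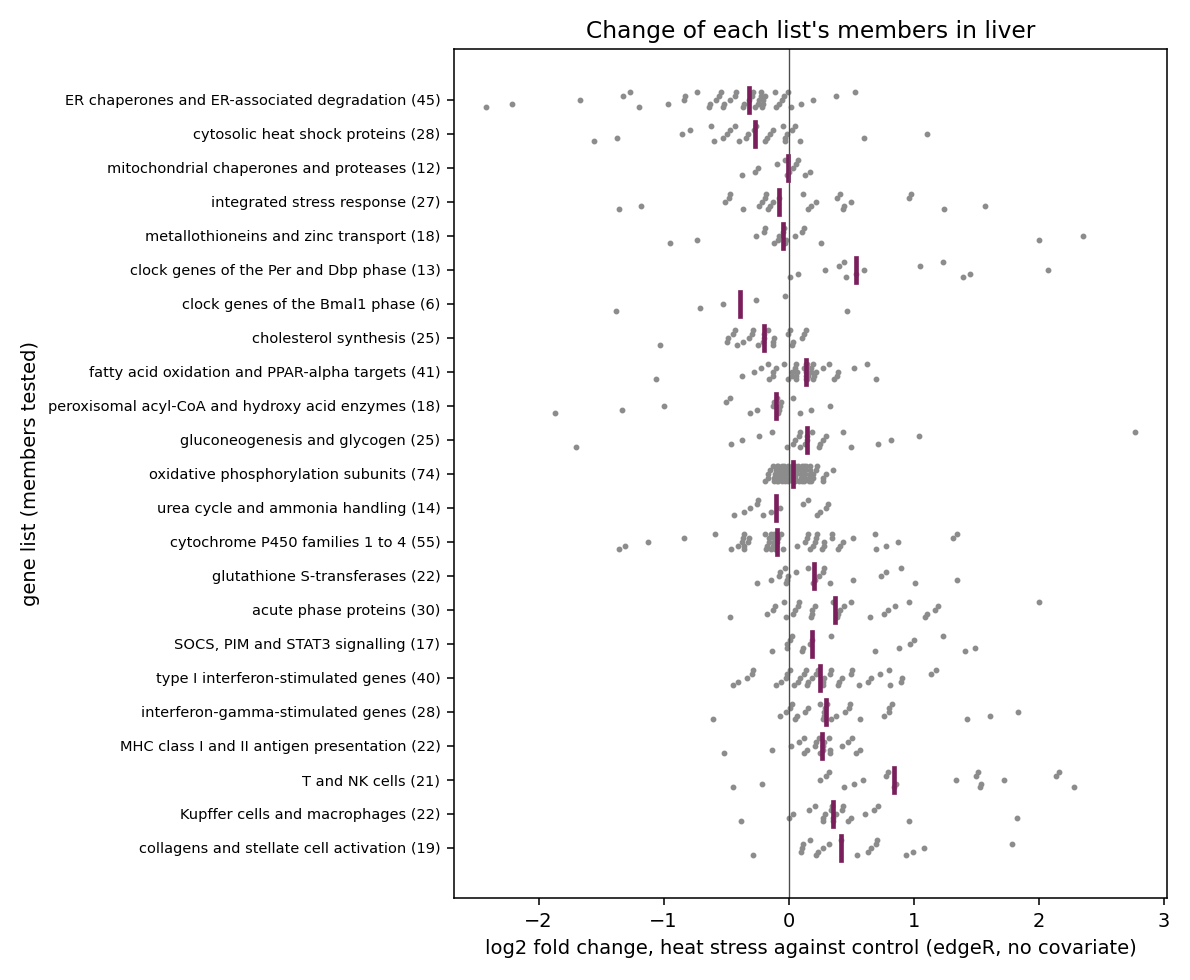
Log2 fold change of each tested member of 23 gene lists in the fit without a covariate, with 1 grey point per gene and a bar at each list's median. ER chaperones sit at a median of -0.31 against 0.011 over all tested genes. The T and NK cell points are the 21 of 48 genes that passed the count filter, which a gene can pass through its higher group, and their median of 0.84 does not describe the whole list.

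Several immune lists had medians above those of all genes, with few calls. Among 40 type I interferon-stimulated genes 1 rose and 0 fell, 6 were higher without overlap (15.0% against 5.38% of all genes), 0 were lower, and the median was 0.25. Without both libraries that carry muscle transcripts the median was 0.19. There 8 of the 40 were higher and 2 lower without overlap, against 21.6% and 20% of all genes. Irf7, the transcription factor that amplifies type I interferon (chr7:141262706-141266481), stood at 23.05, 21.2 and 18.5 CPM in the control livers and 56.5, 39.9 and 41.9 CPM in the heat stress livers and rose (log2 fold change 1.15 ± 0.19, adjusted p = 0.011). Irf7 was called in 15 of the 17 alternatives, and lost the call with the suffix term and without control replicate 2. Oasl2, an antiviral protein, was at 1.87, 1.55 and 1.77 CPM in the control livers and 3.13, 3.48 and 3.15 CPM in the heat stress livers (0.87 ± 0.30, adjusted p = 0.34), and Ifi27, a mitochondrial interferon-induced protein, at 105, 93.3 and 86.8 CPM in the control livers and 186, 131 and 125 CPM in the heat stress livers (0.64 ± 0.19, adjusted p = 0.23). Each was higher in all 3 heat stress livers. The interferon response element, searched as TTTCNNTTTC, was in the promoters of 13 of 27 list members and of 3.99% of all genes (3.84% of tested genes) with a promoter, but in only 1 of the 4 members with groups without overlap that have one. In the interferon-gamma list 0 of 28 passed, and 5 were higher (17.9% against 5.38% of all genes) and 1 lower (3.6% against 5.73%) without overlap. Without both libraries that carry muscle transcripts, 6 of the 28 were higher and 1 lower (against 21.6% and 20%). The median was 0.3 with all 6 libraries and 0.22 there. The 5 higher ones included the immunoproteasome subunit Psmb8 at 28.9, 30.7 and 32.8 CPM in the control livers and 46.2, 43.7 and 40.1 CPM in the heat stress livers (0.51 ± 0.16, adjusted p = 0.29). Another was the ubiquitin-like modifier Ubd at 0.775, 1.14 and 2.05 CPM in the control livers and 7.89, 3.76 and 2.21 CPM in the heat stress livers (2.01 ± 0.46, adjusted p = 0.088). Of 22 antigen presentation genes 0 passed and 4 were higher without overlap (18.2% against 5.38% of all genes). The median was 0.26, and 0.19 without both libraries that carry muscle transcripts. The 4 included Cd74, the invariant chain, at 50.5, 35.8 and 55.2 CPM in the control livers and 63.5, 80.1 and 57.8 CPM in the heat stress livers (adjusted p = 0.48).

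Feedback regulators of cytokine signalling through STAT3 and STAT5 showed 3 rises and 0 falls in 17 genes, with 6 higher without overlap (35.3% against 5.38%). Socs3 stood at 4.39, 5.06 and 3.63 CPM in the control livers and 7.52, 15.3 and 12.1 CPM in the heat stress livers and rose (log2 fold change 1.28 ± 0.25, adjusted p = 0.041). Cish, a feedback inhibitor in growth hormone signalling, stood at 10.7, 8.399 and 16.3 CPM in the control livers and 32.4, 28.7 and 21.8 CPM in the heat stress livers and rose (log2 fold change 1.27 ± 0.24, adjusted p = 0.036). Pim3, a kinase induced by STAT signalling, stood at 60.1, 65.3 and 57.4 CPM in the control livers and 90.02, 134 and 134 CPM in the heat stress livers and rose (log2 fold change 0.93 ± 0.19, adjusted p = 0.041). Cebpd, a transcription factor of the acute phase, was at 4.13, 4.08 and 3.08 CPM in the control livers and 6.03, 9.06 and 7.57 CPM in the heat stress livers (0.91 ± 0.24, adjusted p = 0.14), and the immediate early gene Junb was at 25.9, 88.3 and 106 CPM in the control livers and 114, 173 and 117 CPM in the heat stress livers, with control replicate 1 far below the rest. These 3 calls were among the less stable ones, since Socs3 and Pim3 were each called in 2 of the 6 fits that left out 1 library and Cish in 3.

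The acute phase list had 2 rises (Saa1 and Mt2) and 0 falls in 30 genes, 24 positive log2 fold changes and a median of 0.37 (0.57 without both libraries that carry muscle transcripts). 4 were higher without overlap (13.3% against 5.38%) and 1 lower (3.3% against 5.73%). Saa1, serum amyloid A, stood at 24.3, 42.98 and 45.3 CPM in the control livers and 129, 43.2 and 69.9 CPM in the heat stress livers and rose in the fit with the covariate (log2 fold change 1.31 ± 0.20, adjusted p = 0.009). Its groups overlapped, since heat stress replicate 2 was within the control range, and without the covariate the value was 1.11 ± 0.38 (unadjusted p = 0.015). Reads of Saa1 and its close paralogue Saa2, at 10.5, 15.01 and 16.1 CPM in the control livers and 56.5, 14.7 and 22.2 CPM in the heat stress livers, may be split uncertainly. Orm2, an orosomucoid, was at 13.3, 9.704 and 9.79 CPM in the control livers and 22.5, 17.1 and 35.96 CPM in the heat stress livers (1.21 ± 0.25, adjusted p = 0.059), and Orm3 was at 7.55, 7.26 and 4.47 CPM in the control livers and 16.8, 12.1 and 12.5 CPM in the heat stress livers (1.09 ± 0.24, adjusted p = 0.064). Both were higher in every heat stress liver and neither passed. Crp, C-reactive protein, was the member that was lower without overlap, at 382, 442 and 472 CPM in the control livers and 307, 299.9 and 328 CPM in the heat stress livers (-0.43 ± 0.18, adjusted p = 0.45). Haptoglobin (Hp), at 2559, 1589 and 1964 CPM in the control livers and 2083, 2209 and 3674 CPM in the heat stress livers, and Lrg1, at 205, 76.3 and 91.2 CPM in the control livers and 113, 159.6 and 233 CPM in the heat stress livers, overlapped between groups.

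Transcripts of T and NK cells were at very low levels in liver. Of 48 listed genes 21 could be tested and 27 had too few counts. 1 rose, 0 fell, 9 were higher without overlap (42.9% of those tested against 5.38% of all genes) and the median log2 fold change was 0.84, 0.96 without both libraries that carry muscle transcripts. A gene this low could pass the filter on counts mainly through the group in which it was higher, so the count over tested members is a description only. Summed over all 48 genes the list stood at 37.8, 61.9 and 56.8 CPM in the controls and 95.2, 65.7 and 74.8 CPM in the heat stress livers. In bulk tissue, more cells of a type and more RNA per cell cannot be told apart.

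Ccl5, a chemokine of T and NK cells (chr11:83525778-83530518), stood at 0.516, 1.14 and 1.68 CPM in the control livers and 6.55, 4.39 and 4.89 CPM in the heat stress livers and rose (log2 fold change 2.47 ± 0.35, adjusted p = 0.0039). These levels rest on 8, 14 and 18 counts in the controls and 88, 63 and 62 counts with heat stress. Control replicate 1 was under the minimum count of 10, so the controls alone would not have passed the count filter. The call is to be read with that limit. Cd8a, the co-receptor of cytotoxic T cells, was at 0.194, 0.571 and 0.186 CPM in the control livers and 2.08, 1.04 and 1.18 CPM in the heat stress livers (2.29 ± 0.53, adjusted p = 0.084), from 2 to 7 counts in controls and 15 to 28 counts with heat stress. Cd3e, a T cell receptor subunit, was at 0.387, 0.245 and 0.559 CPM in the control livers and 1.12, 1.25 and 1.58 CPM in the heat stress livers (adjusted p = 0.19), Spn (CD43) at 0.452, 0.082 and 0.746 CPM in the control livers and 1.49, 2.09 and 2.05 CPM in the heat stress livers (adjusted p = 0.12) and Cd7 at 0.387, 0.489 and 0.186 CPM in the control livers and 1.04, 0.836 and 1.34 CPM in the heat stress livers (adjusted p = 0.30). None of the 4 passed. Each had fewer than 10 counts in every control and passed the count filter only through the heat stress livers. Nothing is therefore read from their direction or their tests. Ccl4 had 1 to 3 counts in the controls and 6 to 15 with heat stress, and was not tested. Control replicate 1 had the lowest sum of T and NK, B cell and Kupffer cell genes of the 6 libraries. Its part in these differences was not tested.

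Other immune cell lists had overlapping sums. Kupffer cell and macrophage genes summed to 295, 454 and 549 CPM in the controls and 756, 467 and 387 CPM with heat stress. 0 of the 22 genes passed and 21 had a positive log2 fold change, with a median of 0.35. Without both libraries that carry muscle transcripts the median was 0.26. There 2 of the 22 were higher and 1 lower without overlap, against 21.6% and 20% of all genes. Cd68, a lysosomal macrophage protein, was at 4.65, 3.59 and 5.87 CPM in the control livers and 7.07, 6.83 and 5.99 CPM in the heat stress livers (adjusted p = 0.55). Marco, a scavenger receptor, was at 2.13, 7.42 and 7.08 CPM in the control livers and 34.8, 14.98 and 8.36 CPM in the heat stress livers (adjusted p = 0.51) with a wide range among the heat stress livers, and Clec4f, specific to Kupffer cells, was at 47.3, 58.96 and 73.2 CPM in the control livers and 71.7, 53.1 and 58.9 CPM in the heat stress livers, overlapping. Il1b, which encodes interleukin-1 beta, was at 1.23, 3.02 and 14.5 CPM in the control livers and 16.4, 6.27 and 11.2 CPM in the heat stress livers, also overlapping (1.55 ± 0.71, adjusted p = 0.61). B and plasma cell genes summed to 12.5 to 30.6 CPM in controls and 19.8 to 38.7 CPM with heat stress. Complement (25 genes) and coagulation (25 genes) had 0 calls, with medians of 0.07 and 0.1 (0.14 and 0.27 without both libraries that carry muscle transcripts).

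**Figure D5:**
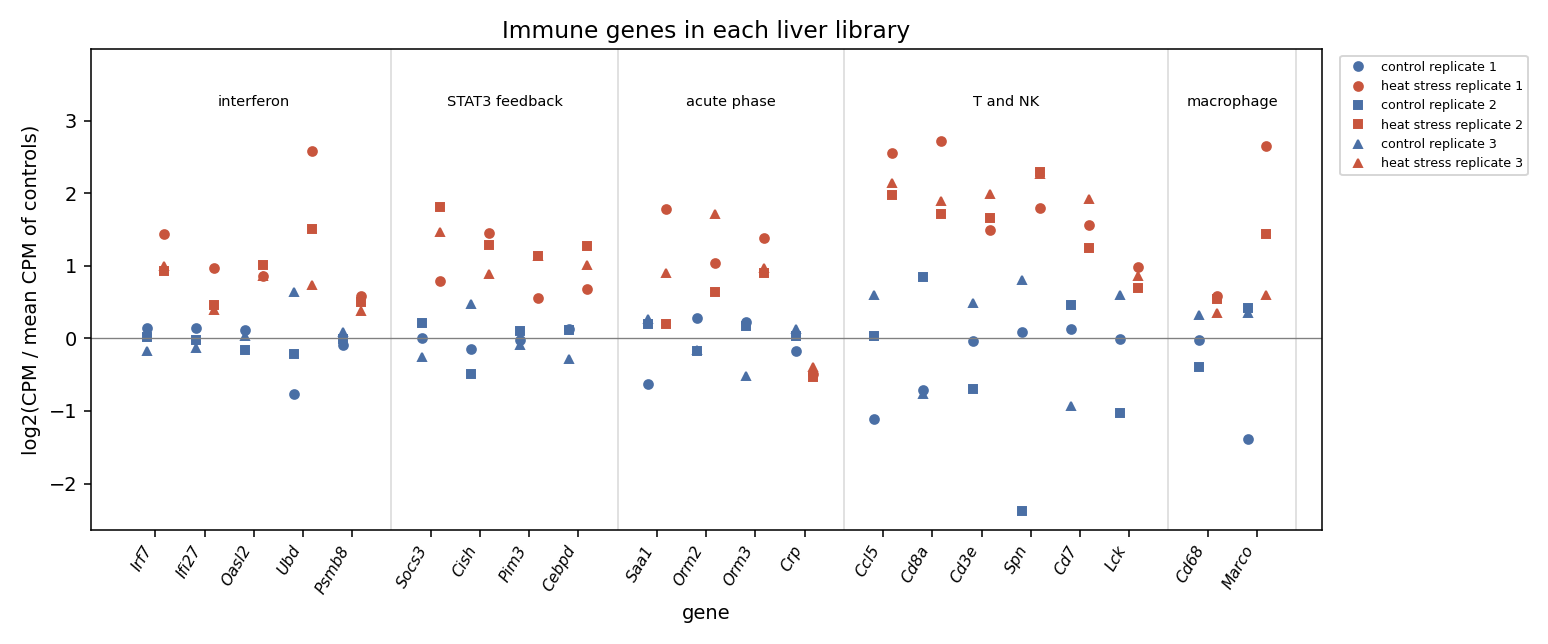
Level of 21 immune genes in each liver library, as log2 of the CPM over the mean CPM of the 3 controls, with controls in blue and heat stress in red. Irf7, Socs3 and Ccl5 lie above all controls in each heat stress liver, Crp lies below them, and Saa1 of heat stress replicate 2 falls within the control range.

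Collagen and stellate cell genes had 0 calls in 19, 3 higher without overlap (15.8% against 5.38% of all genes) and a median of 0.41 without the covariate and 0.23 with the muscle score. Tgfb1, the profibrotic cytokine, was at 3.94, 3.18 and 3.45 CPM in the control livers and 5.36, 5.64 and 6.31 CPM in the heat stress livers (0.69 ± 0.24, adjusted p = 0.36), and Col1a2 was at 5.49, 3.26 and 5.22 CPM in the control livers and 5.73, 10.4 and 5.92 CPM in the heat stress livers, with heat stress replicate 2 the highest. That library also held the most muscle and adipose transcripts, and the part of these in the collagen values was not tested. Of 12 sinusoidal endothelial genes 0 passed and 3 were higher without overlap (25.0% against 5.38%). Of 11 tested cell cycle genes 0 passed, with 1 higher and 1 lower without overlap (9.1% each, against 5.38% and 5.73% of all genes). The higher one was Mki67, at 1.16, 1.22 and 1.21 CPM in the control livers and 1.71, 1.46 and 1.42 CPM in the heat stress livers. The lower one was Mcm2, at 4.45, 5.545 and 4.01 CPM in the control livers and 3.35, 2.37 and 2.76 CPM in the heat stress livers (-0.68 ± 0.27, adjusted p = 0.44).

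Outside the lists, the genes that rose and were among the 12 with the smallest p in the fit without the covariate, groups not overlapping, included Foxq1, a forkhead transcription factor, at 8.07, 4.89 and 3.73 CPM in the control livers and 18.02, 18.4 and 23.5 CPM in the heat stress livers (log2 fold change 1.79 ± 0.25, adjusted p = 0.0035), Csrnp1, a nuclear protein of the immediate early class, at 13.6, 11.9 and 10.8 CPM in the control livers and 19.8, 27.2 and 30.2 CPM in the heat stress livers (log2 fold change 1.04 ± 0.20, adjusted p = 0.031), and Cbx7, a Polycomb protein, at 6.46, 5.46 and 6.62 CPM in the control livers and 10.8, 12.96 and 14.5 CPM in the heat stress livers (log2 fold change 1.03 ± 0.21, adjusted p = 0.046). The predicted gene Gm10804 had 4, 4 and 0 counts in the controls and 35, 34 and 88 with heat stress. It is among the 28 genes called higher, but it passed the count filter only through the group in which it was higher, so nothing is read from its call. Among those that fell, 1810019D21Rik stood at 35.6, 36.5 and 25.6 CPM in the control livers and 15.6, 13.9 and 13.7 CPM in the heat stress livers (log2 fold change -1.19 ± 0.19, adjusted p = 0.0092). Cib3, a calcium-binding protein, was at 2.13, 0.489 and 1.96 CPM in the control livers and 9.38, 5.37 and 4.101 CPM in the heat stress livers (2.03 ± 0.46, adjusted p = 0.12), higher without overlap. Tubb2a, a beta-tubulin chosen here after its values were seen, because it passed in each of the 17 alternatives with the muscle score, stood at 106, 62.2 and 47.5 CPM in the control livers and 28.1, 48.9 and 25.1 CPM in the heat stress livers and fell (log2 fold change -1.29 ± 0.16, adjusted p = 0.003), although heat stress replicate 2 overlapped the lowest control. Without the covariate Tubb2a had a log2 fold change of -1.08 ± 0.33 (edgeR adjusted p = 0.61), and within each group its highest value came from the library with muscle transcripts.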

How the data were processed

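Gene counts of polyadenylated, strand-specific, paired-end libraries were compared between 3 heat stress and 3 control livers, grouped by GEO's titles. The deposited values are raw read counts per gene symbol on mm10, which the authors did not normalise. The submitters' processing notes and the study's methods name FastQC 0.11.9, Trimmomatic 0.39, HISAT2 2.2.1, featureCounts of Subread 2.0.1 and DESeq2 1.22.2, and a further section of the methods describes an older set of tools. Paralogues can lose or share reads in such counting. Some column names end in 2nd (3 liver libraries, control replicate 2 and heat stress replicates 1 and 3), with no meaning stated. Deposited tables of the authors' own comparisons (fold changes and p-values) were not used, and 0 sample columns were left unmapped.

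Genes were kept with edgeR's filterByExpr (minimum count 10, minimum total 15), scaled by TMM and tested with edgeR's quasi-likelihood test, two-sided, with Benjamini-Hochberg adjustment at 0.05, once without a covariate and once with the muscle score (mean log2 CPM, prior count 2). Muscle genes were not read from the second fit. CPM values are TMM-scaled, except sums over lists, which use library totals. Tools were R 4.3.3 with edgeR 4.0.16, and alternatives were DESeq2 1.42.0, limma 3.58.1 voom with sample weights, other scalings, filters, covariates and blocks, and leaving out libraries. Both fits were checked on simulated counts in which, besides planted fold changes, only the muscle genes differed in level between libraries. That check does not cover the other transcripts in which the real libraries differed. Gene positions are from GENCODE vM21 and promoters from RefSeq GRCm38.p6. Depth was 10466198 to 15609040 counts, at which 3 counts are 1.92e-05% to 2.87e-05% of a library, and such floors cover counting error only. Within a group no 2 libraries agreed within sampling noise (chi-square per degree of freedom of 39.7 or more).

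The lists, the fit with the muscle score and the genes named were chosen with earlier results of these data known. Named were the 12 genes of smallest p per direction without overlap of the groups, up to 4 such members of each list (or its first tested member), and liver genes named by the study. Some genes that these rules name are not reported here. Other list members are named where a count or a promoter match concerns them, and were chosen after their values were seen.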

Additional observations from a re-analysis of the deposited data

How the results depend on the processing

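Without a covariate, calls numbered 0 with RLE scaling, a stricter filter and scaling without muscle and brain genes, 3 with library totals, 8 with no filter, 14 with all 12 libraries, 15 with limma voom, 6 with the 2nd suffix as a term and 66 with DESeq2. They numbered 81 without both libraries that carry muscle transcripts, an alternative with 2 livers a group, and 0 to 25 without 1 library, the 25 without control replicate 1. With the muscle score (56 calls), 223 genes passed with no filter, 125 with DESeq2, 205 with limma voom, 29 with the summed muscle level in place of the score, and 11 to 93 without 1 library, the 11 without control replicate 2 and the 93 without heat stress replicate 1 (90 without heat stress replicate 2). With the score and the 2nd suffix as a term, many of the 56 lost the call, among them Irf7, Mt2, Foxq1 and Acnat1. 9 of the 56 passed in each of the 17 alternatives with the score. Groups did not overlap for 2657 higher and 2460 lower genes without both libraries, a count chosen after seeing the data. The causes were not tested.

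With the replicate number as a block, 1 gene passed without the covariate and 146 with it. Deviations of same-numbered livers from their group means correlated at -0.584, -0.509 and -0.089. Those of control replicate 1 and heat stress replicate 2, which carry muscle transcripts, correlated at 0.553. With 3 livers a group and such a library in each, these values cannot decide whether equal numbers mark a pair.

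Direction reversed for 6 genes named by rule, none of which passed in either fit of the report. Cyp2f2 without the covariate had a log2 fold change of 0.231 with limma voom, 0.093 with the suffix term, 0.325 without both libraries and -0.381 to 0.297 without 1, and with the score -0.361 to 0.368. Prss2 was 0.301 with limma voom and -1.567 to 1.206 without 1 library, and with the score 1.296 with limma voom, 0.137 with the block and -1.401 to 0.88. Acta1, a muscle gene, was -4.878 to 9.974 without 1 library, and with the score 0.312 with DESeq2, 2.663 with an indicator of the 2 muscle libraries (edgeR adjusted p = 0.00852) and -0.497 to 1.254. With the score, Krt19 was -0.187 with limma voom and -0.189 to 0.73, Il1rap 0.011 with the suffix term, and Fabp4 -0.009 to 0.509. No other gene named by rule changed sign in an alternative run. Depth limits the low genes, such as those of T and NK cells, which rest on few counts.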
